A study of Homo sapiens with 6 samples.

Results

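The genes described here are 40 interferon-stimulated genes (ISGs), taken from a list of names in which DDX58 is the gene also called RIGI. All 40 were found among the 34957 genes that the deposited transcript tables sum to, and each was followed in all 6 RNA-seq libraries of the series. The cells were A549, an established line from a human lung adenocarcinoma. They were transfected for 48 h with a control siRNA (si-ctrl) or with either of 2 siRNAs against the long noncoding RNA PLANE (si-PLANE.1 and si-PLANE.2). Each group has 2 libraries. Those of si-ctrl and si-PLANE.1 carry the numbers 1 and 2 in the labels, and those of si-PLANE.2 carry 3 and 4. All groups share the line, the lipid transfection reagent and the harvest time, and no library from untransfected cells was analysed here. No other agent or genetic change appears in the labels. PLANE itself was not analysed here, so the extent of its knockdown cannot be given.

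Interferons are secreted proteins that cells release after sensing viral or misplaced nucleic acid. On binding their receptors, they activate the kinases JAK1 and TYK2, which phosphorylate STAT2. STAT2 and IRF9 are subunits of the complex ISGF3, which binds a DNA element called the interferon-stimulated response element (ISRE) in the promoters of ISGs. The ISG products block viruses at entry, translation, replication and release. Double-stranded RNA, siRNA duplexes included, is a known trigger of the pathway, and epithelial lines such as A549 respond to it.

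The libraries held 10572151 to 20778431 expected counts, which are estimated read numbers per transcript and need not be whole. Levels are given as FPKM, the authors' values scaled to transcript length and library size, summed here over the transcripts of a gene. Values of a gene are listed for libraries 1, 2 of si-ctrl, 1, 2 of si-PLANE.1 and 3, 4 of si-PLANE.2, in that order. Of 10 A549 markers (keratins and aldo-keto reductases among them), 10 were at 1 FPKM or more in each library, and they summed to 12590 to 16040 FPKM in the 4 libraries numbered 1 or 2 and to 26620 to 26770 FPKM under si-PLANE.2. The 8 fibroblast markers summed to 10.4 to 21.1 FPKM in the former and to 3.90 to 4.64 FPKM in the latter. Of 12 leukocyte markers, CD3E, CD3D, CD2, LILRA4 and CLEC4C were at 0 counts in all 6 libraries, and the leukocyte antigen PTPRC had 2 counts in si-PLANE.2 library 3 and 0 in the other 5. The leukocyte markers summed to between 5.51 and 6.64 FPKM in the 4 libraries numbered 1 or 2 and reached 10.4 and 7.83 FPKM under si-PLANE.2, mostly from CD14 and LYZ. The 19 replication-dependent histone genes, whose RNAs lack a poly(A) tail, summed to 195 to 203 FPKM in the si-PLANE.2 libraries and to 2677 to 4668 FPKM in the other 4. Either poly(A) selection or depletion of rRNA is given as the preparation, without assignment to libraries, so whether it differed for si-PLANE.2 is not known.

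Many of the promoters share a sequence element. Reference promoters (250 bases before to 50 after the gene start, RefSeq, GRCh38.p14) were found for 34 of the 40 members, the others being IFIT2, MX2, OAS2, OASL, IRF7 and USP18. They were searched on both strands for the ISRE core GAAANNGAAA, where N is any base. It was present in 22 of 34 member promoters (64.7%) and in 3.65% of all 27305 promoters. The element TTCNNNGAA, bound by STAT dimers and called GAS, was present in 9 of the 34 (26.5%) and in 7.88% of all promoters. In 4 members a GAS match overlapped an ISRE match, as in BST2. Stretches upstream of the gene start are printed in the direction of the gene, with each ISRE core in capitals. A core on the opposite strand reads as TTTC repeats.

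The first 6 belong to members with very different levels between libraries, and they show tandem or repeated cores:
ISG15: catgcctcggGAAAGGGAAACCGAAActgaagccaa
BST2: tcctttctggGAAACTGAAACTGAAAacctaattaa
IFI6: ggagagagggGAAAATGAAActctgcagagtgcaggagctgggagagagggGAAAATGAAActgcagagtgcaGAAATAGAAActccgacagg
IFI27: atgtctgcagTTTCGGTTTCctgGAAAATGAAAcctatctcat
IFIT1: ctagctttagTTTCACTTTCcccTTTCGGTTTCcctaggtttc
IFIT3: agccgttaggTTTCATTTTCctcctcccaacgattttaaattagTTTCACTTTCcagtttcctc

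The next 4 belong to members that stand out in other ways described further on. In log2 CPM, DDX60 and PARP14 lay below both si-ctrl libraries with si-PLANE.2, DDX60 only slightly below si-ctrl library 2. ISG20 and EPSTI1 are the members not called between library numbers:
DDX60: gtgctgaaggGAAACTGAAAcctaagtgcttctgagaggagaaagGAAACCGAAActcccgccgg
PARP14: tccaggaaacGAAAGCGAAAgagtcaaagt
ISG20: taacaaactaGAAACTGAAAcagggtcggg
EPSTI1: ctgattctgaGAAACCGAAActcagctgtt

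The printed stretches lie at chr1:1013374-1013409 on the plus strand for ISG15, chr19:17405735-17405770 on the minus strand for BST2, chr1:27672266-27672358 on the minus strand for IFI6 and chr14:94110618-94110660 on the plus strand for IFI27. Those of IFIT1 and IFIT3 are at chr10:89392497-89392539 and chr10:89327831-89327894, both on the plus strand. Those of DDX60, PARP14, ISG20 and EPSTI1 are at chr4:168318786-168318850 (minus), chr3:122680800-122680829 (plus), chr15:88638937-88638966 (plus) and chr13:42992272-42992301 (minus). A match to these letters is a description of the sequence, and binding was not measured. In ISG15 and BST2, 2 cores overlap to give 3 GAAA repeats in a row. IFI6 carries 3 separate cores.

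**Figure D1:**
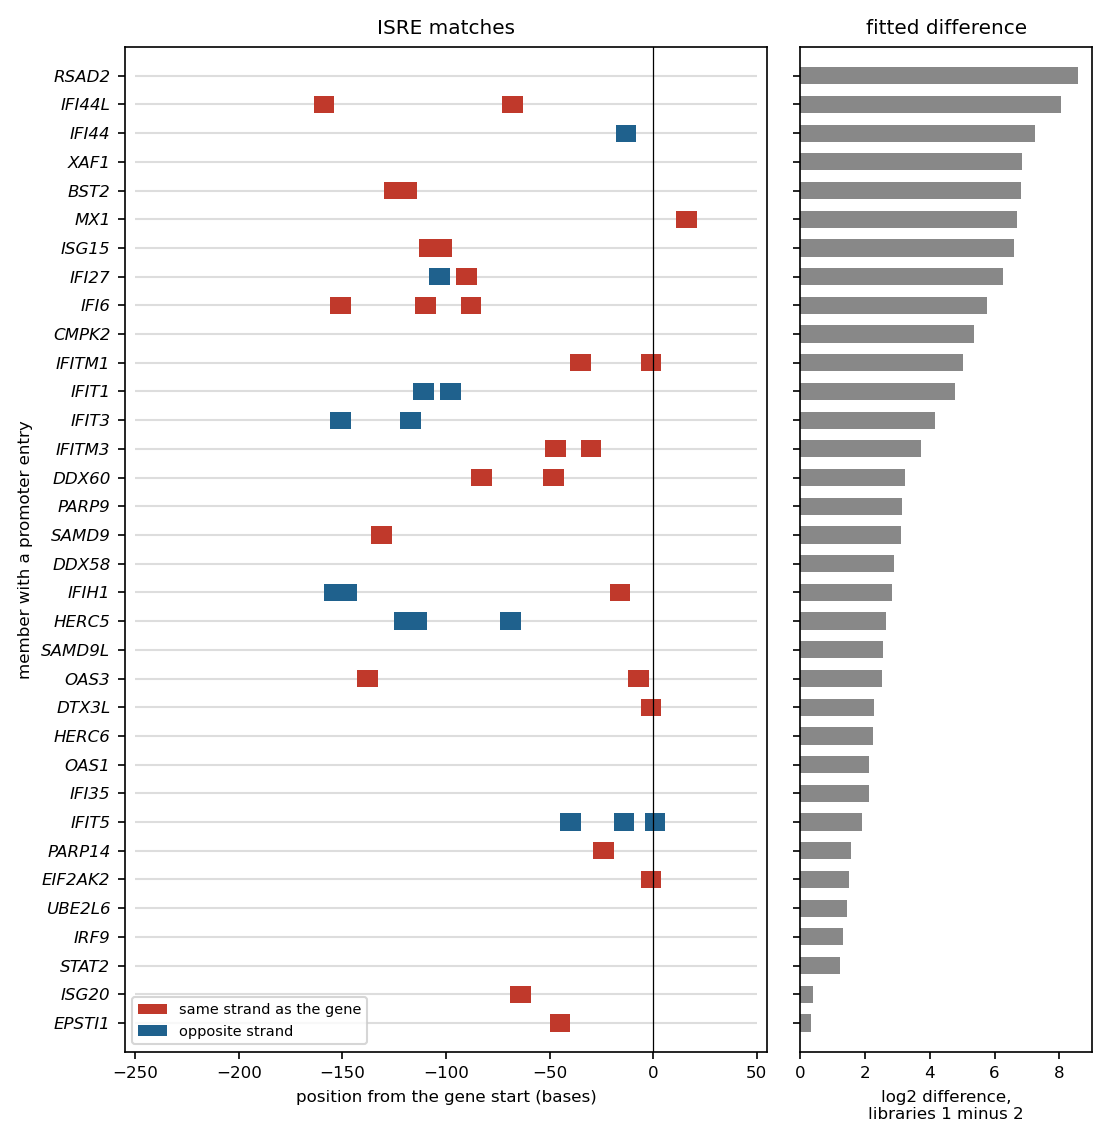
Left, positions of ISRE core matches in bases from the gene start for the 34 members with a reference promoter, coloured by strand. Right, the fitted log2 difference between libraries numbered 1 and 2 for the same genes, with RSAD2's value resting on 0 counts in both libraries numbered 2. Members with and without a match are found at both ends of the order.

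Of the 22 members with a core, the median fitted difference between libraries numbered 1 and 2, described next, was 3.48 on the log2 scale (range 0.32 to 8.05). Of the 12 without a core in this window, it was 2.40 (range 1.22 to 8.58). The ranges overlap over most of their length, and RSAD2, XAF1 and CMPK2 have no core in this window.

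The members differed widely between libraries numbered 1 and 2 of the same group. The 40 members took 0.391% of all counts in si-ctrl library 1 and 0.0864% in si-ctrl library 2. They took 0.530% and 0.0926% in si-PLANE.1 libraries 1 and 2, and 0.0855% and 0.0828% in the si-PLANE.2 libraries 3 and 4. Library 1 was thus the high library in both groups that have one. In 39 of 40 members both libraries numbered 1 were above the other 4 libraries in FPKM, and the remaining member was EPSTI1. Of all 14440 genes tested over the 6 libraries, 11.3% had that order. The order depends on the unit. In log2 CPM it did not hold for every one of the 39, as in IFI35, whose si-PLANE.2 library 3 was 1.40-fold above si-ctrl library 1.

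**Figure D2:**
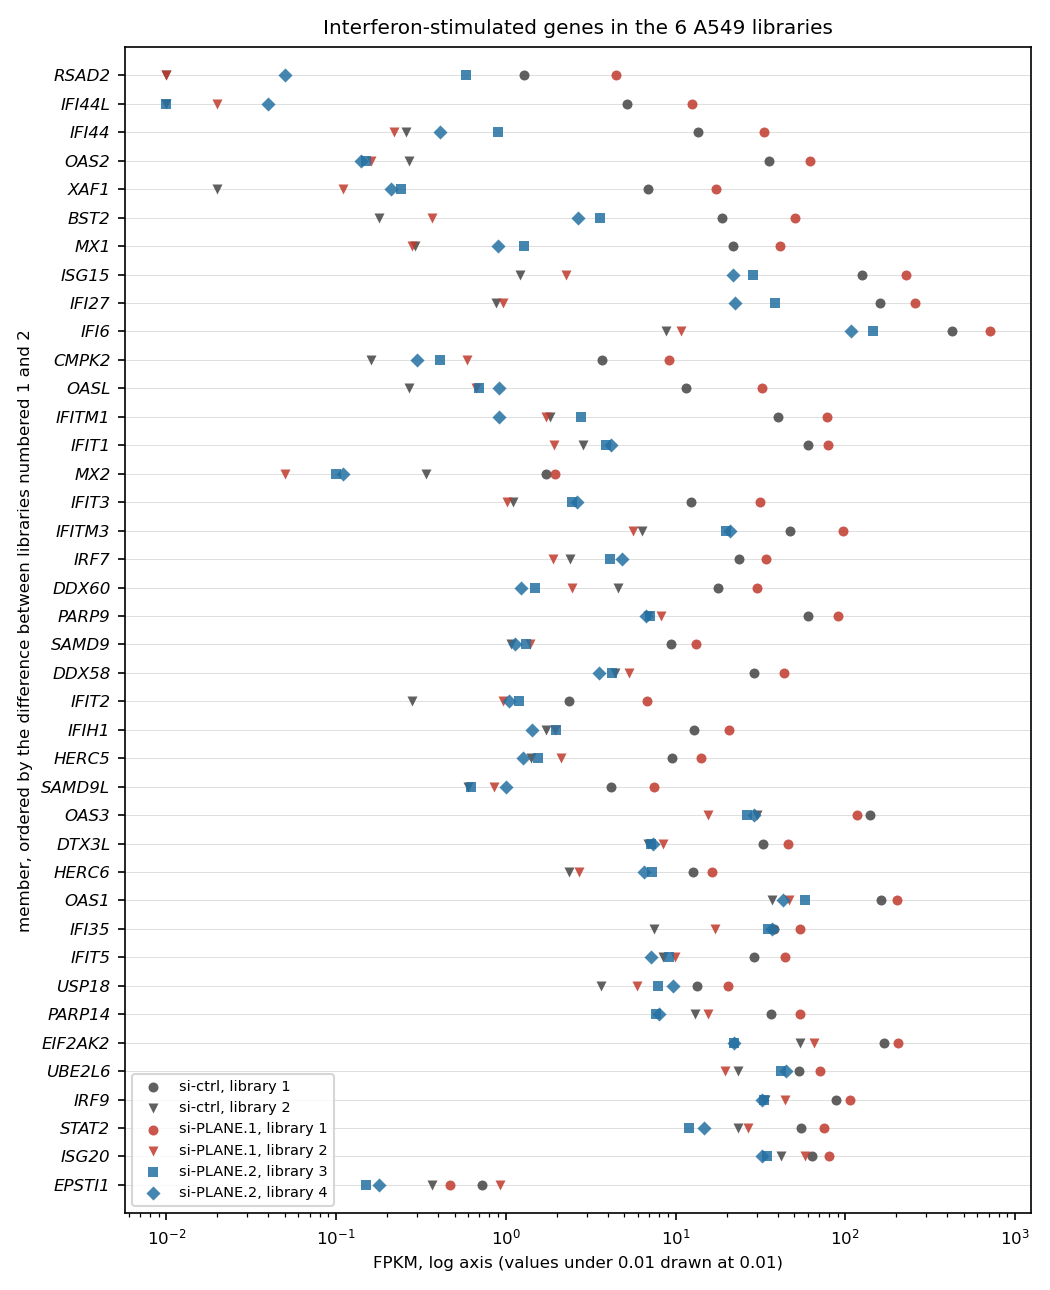
FPKM of each member in each of the 6 libraries, on a log axis, with values under 0.01 drawn at 0.01. Circles, the libraries numbered 1, lie to the right of all other symbols in every member but EPSTI1.

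In a fit with siRNA group and replicate number as terms, the number was tested over the 4 libraries numbered 1 or 2 (edgeR's quasi-likelihood test with Benjamini-Hochberg adjustment over all genes, called at an adjusted p of 0.05). Of the 40 members, 38 were called higher in number 1 and 0 higher in number 2. Of all 14535 genes tested, 2.92% were called higher in number 1 and 2.68% higher in number 2. The members' median difference was 3.14 on the log2 scale (8.79-fold), beside 0.00 over all genes. Among the 50 genes with the smallest p, 31 were members and 10 more came from a separate list of ISGs. The labels do not say what the number marks or whether libraries came from separate cultures, so these p-values measure only the spread between these libraries. The fit left a single residual degree of freedom per gene, with the spread moderated across genes.

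Several members were near absent from libraries numbered 2. ISG15, a ubiquitin-like protein conjugated to many targets during the response, was at 125, 1.22 (si-ctrl), 228, 2.27 (si-PLANE.1) and 28.8, 21.7 FPKM (si-PLANE.2). It was 96.3-fold higher in number 1 (log2 6.59, SE 0.23, adjusted p = 1.59e-175, edgeR). The ranges of si-ctrl and si-PLANE.1 overlapped between 2.27 and 125 FPKM, and the si-PLANE.2 libraries fell between the high and the low libraries of both. The enzymes that handle ISG15 moved less. USP18, which removes ISG15 and restrains receptor signalling, ranged from 3.66 to 20.3 FPKM over the 6 libraries. UBE2L6, the conjugating enzyme, was at 53.6, 23.4 (si-ctrl), 70.5, 19.6 (si-PLANE.1) and 41.7, 44.8 FPKM (si-PLANE.2). The fitted differences in number were 3.39-fold for USP18 and 2.71-fold for UBE2L6, and the ligases HERC5 and HERC6 differed by 6.30-fold and 4.71-fold. All 5 genes of the ISG15 system were called.

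The IFI genes, named for interferon-induced proteins, held the most abundant member and some of the widest gaps. IFI6, a mitochondrial and endoplasmic reticulum protein that limits cell death and flavivirus replication, was at 426, 8.83 (si-ctrl), 708, 10.8 (si-PLANE.1) and 146, 109 FPKM (si-PLANE.2). IFI27, a related small protein, was at 161, 0.88 (si-ctrl), 258, 0.96 (si-PLANE.1) and 38.3, 22.5 FPKM (si-PLANE.2). IFI6 was 54.0-fold and IFI27 76.4-fold higher in number 1.

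IFI44 and its neighbour IFI44L fell nearly to background in number 2. IFI44 had 247 and 3 counts in si-ctrl and 436 and 1 counts in si-PLANE.1, with 20 and 11 counts in si-PLANE.2. IFI44L had 222 and 1, 408 and 1, and 1 and 2 counts, so that with si-PLANE.2 it was as low as in libraries numbered 2. Its ratio of counts in si-PLANE.1, scaled for library size, was 373 (95% exact interval 66.6 to 14800). Such intervals cover counting error only. IFI35 differed less, at 38.0, 7.45 (si-ctrl), 54.1, 17.0 (si-PLANE.1) and 34.9, 37.2 FPKM (si-PLANE.2), a 4.32-fold difference in number. XAF1, an antagonist of the apoptosis inhibitor XIAP, had 172 and 1 counts in si-ctrl, 347 and 3 in si-PLANE.1, and 5 and 7 in si-PLANE.2.

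The OAS enzymes make 2′-5′ oligoadenylate on double-stranded RNA and so switch on RNase L. OAS2 was at 35.7, 0.27 (si-ctrl), 61.8, 0.16 (si-PLANE.1) and 0.15, 0.14 FPKM (si-PLANE.2), and its difference in number was 148-fold. OAS1 and OAS3 kept a higher level in the low libraries. OAS1 was at 162, 37.0 (si-ctrl), 203, 46.5 (si-PLANE.1) and 57.7, 43.0 FPKM (si-PLANE.2). OAS3 was at 140, 30.3 (si-ctrl), 117, 15.5 (si-PLANE.1) and 26.5, 29.0 FPKM (si-PLANE.2). Their differences in number were 4.33-fold and 5.80-fold, and that of OASL, which enhances signalling by RIG-I, was 41.4-fold. The genes OAS1, OAS3 and OAS2 lie side by side at chr12:113343661-113449528 (GRCh37), so neighbours in the genome differed widely in range. EIF2AK2 encodes PKR, the kinase that stops translation on binding double-stranded RNA. It was at 169, 54.3 (si-ctrl), 203, 65.2 (si-PLANE.1) and 22.0, 22.2 FPKM (si-PLANE.2). The number difference was 2.82-fold (log2 1.50, SE 0.12), and the si-PLANE.2 libraries were below all 4 others.

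Other effector families were split in the same direction, by amounts that differed between families. The IFIT proteins, which bind foreign RNA ends, are encoded at chr10:91043451-91181362 (GRCh37) in the order IFIT2, IFIT3, IFIT1 and IFIT5. IFIT1 was at 60.0, 2.84 (si-ctrl), 79.1, 1.92 (si-PLANE.1) and 3.90, 4.14 FPKM (si-PLANE.2), with a difference in number of 27.8-fold. The differences were 17.9-fold for IFIT3, 7.20-fold for IFIT2 and 3.76-fold for IFIT5. Members of the IFIT and IFITM families share sequence, so reads may have been split between them. IFITM1, a membrane protein that blocks viral fusion, was at 40.4, 1.83 (si-ctrl), 77.7, 1.72 (si-PLANE.1) and 2.76, 0.91 FPKM (si-PLANE.2). IFITM3 was at 47.5, 6.35 (si-ctrl), 97.0, 5.61 (si-PLANE.1) and 19.95, 21.0 FPKM (si-PLANE.2). These were differences in number of 32.7-fold and 13.3-fold.

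BST2 (tetherin), which holds budding virions on the cell, had 198 and 2 counts in si-ctrl, 429 and 3 in si-PLANE.1, and 59 and 38 in si-PLANE.2. MX1, a GTPase that blocks viral ribonucleoproteins, was at 21.9, 0.29 (si-ctrl), 41.0, 0.28 (si-PLANE.1) and 1.28, 0.90 FPKM (si-PLANE.2), with a difference in number of 104-fold. MX2, next to it on chromosome 21, was never above 1.94 FPKM and differed 18.6-fold. RSAD2 (viperin), which makes a chain-terminating nucleotide, had 29 and 0 counts in si-ctrl, 71 and 0 in si-PLANE.1, and 7 and 1 in si-PLANE.2. Set against a floor of 3 counts per library, it was at least 9.81-fold higher in si-ctrl library 1 than in library 2, and at least 21.7-fold higher in si-PLANE.1 library 1 than in library 2. The members' median difference was 3.14 also with RSAD2 at its bound. CMPK2, whose gene overlaps that of RSAD2 on the opposite strand, was 41.4-fold higher in number 1. It had 118 and 5 counts in si-ctrl and 250 and 3 in si-PLANE.1, so this fold is imprecise. SAMD9 and SAMD9L, neighbours on chromosome 7 that restrain translation, were 8.71-fold and 5.90-fold higher. Whether the counting used strand is not given in the sources used here, so reads of CMPK2 and RSAD2, or of the overlapping PARP9 and DTX3L, could not be told apart where they overlap.

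The sensors had a median log2 difference in number of 2.89 and the transcription factors of 1.33, beside 3.14 over all members. DDX58 (RIG-I), which senses RNA with a 5′ triphosphate, ranged from 3.55 to 43.8 FPKM over the 6 libraries. IFIH1 (MDA5), the sensor of long double-stranded RNA, ranged from 1.43 to 20.6 FPKM. Their differences in number were 7.41-fold and 7.06-fold, and that of the related helicase DDX60 was 9.40-fold. Of the factors, IRF7, which drives interferon transcription, differed 11.7-fold, while the ISGF3 subunits IRF9 and STAT2 differed 2.51-fold and 2.32-fold. IRF9 was at 88.3, 33.5 (si-ctrl), 107, 44.3 (si-PLANE.1) and 33.2, 32.5 FPKM (si-PLANE.2). STAT2 was at 54.8, 23.3 (si-ctrl), 74.5, 26.6 (si-PLANE.1) and 11.95, 14.7 FPKM (si-PLANE.2). The ADP-ribosyltransferases PARP9 and PARP14 and the ubiquitin ligase DTX3L, PARP9's partner, differed 8.87-fold, 2.99-fold and 4.89-fold.

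The members not called were ISG20 and EPSTI1. ISG20, an exonuclease for single-stranded RNA, was at 64.1, 41.8 (si-ctrl), 80.0, 57.8 (si-PLANE.1) and 34.8, 32.4 FPKM (si-PLANE.2). Its fitted difference in number was 1.31-fold (adjusted p = 0.0618, edgeR), in the same direction as the others. EPSTI1, which is induced by interferon in epithelium, was never above 0.92 FPKM and had 10 and 15 counts in si-ctrl and 15 and 5 in si-PLANE.1. Its count ratio was 0.677 (95% exact interval 0.272 to 1.61) in si-ctrl and 2.75 (0.948 to 9.65) in si-PLANE.1, so no difference in number was detectable at this depth.

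The libraries were also compared singly, with no replicate. In si-ctrl, 38 of 40 members were at least 2-fold higher in library 1 (with a higher level of at least 1 FPKM), against 2.12% of all genes. In si-PLANE.1, 38 of 40 were, against 3.25% of all genes. The same 38 met this in both pairs, against 0.908% of all genes, and 0 members were 2-fold lower in both pairs, against 0.268% of all genes. The median difference was 3.03 in si-ctrl and 3.22 in si-PLANE.1 on the log2 scale. Over the 40 members, the differences in the 2 pairs correlated across genes with Pearson's r = 0.967. The genes are not independent, and the points share the TMM scaling of the 4 libraries. Of the 132 genes 2-fold higher in number 1 in both pairs, 38 were members, 19 came from the separate ISG list, 5 from the other pathway lists and 70 from none of them.

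**Figure D3:**
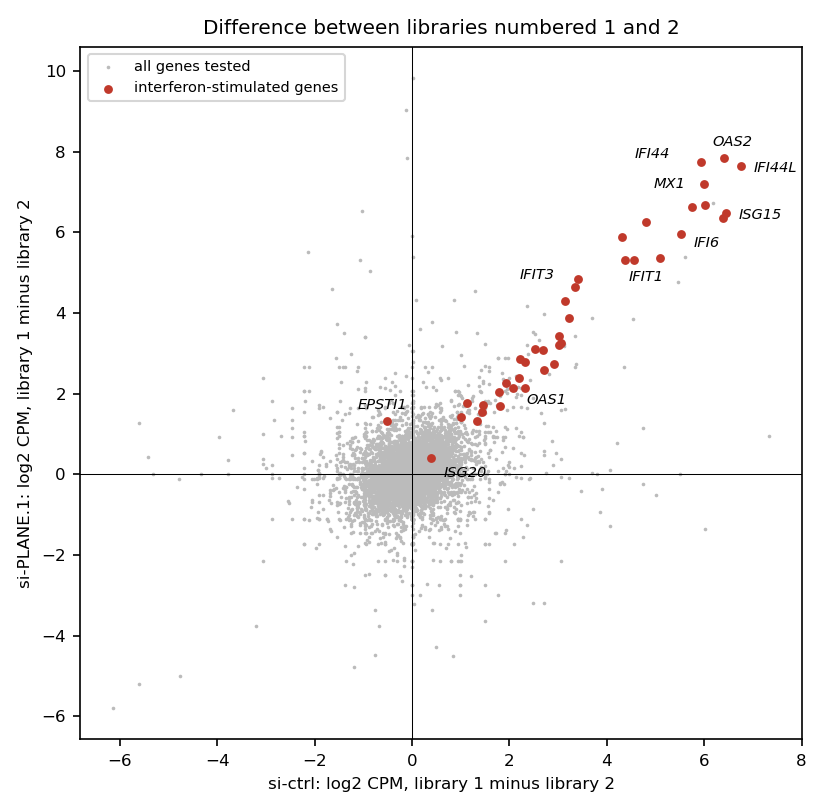
Difference between library 1 and library 2 in log2 CPM (counts scaled to a common library size), in si-ctrl (x axis) and in si-PLANE.1 (y axis), for all 14535 genes tested (grey) and the 40 members (red). The members spread along the upward diagonal to a difference of 6.75 in si-ctrl and 7.83 in si-PLANE.1, and EPSTI1 is the member left of 0.

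The pathway above the ISGs was examined with gene lists. Of 12 interferon genes, IFNE alone passed the filter on low values, and the other 11 had at most 3 counts in any library. IFNB1 had 3 counts in si-PLANE.1 library 1 and 0 in the other 5 libraries. IFNL2 had 1 count in si-ctrl library 1, 3 in si-PLANE.1 library 1 and 0 elsewhere. A count of 0 allows up to 3 counts at this depth, so these genes were not distinguishable between libraries. IFNE, which is constitutive in epithelium, was at 1.98, 2.53 (si-ctrl), 2.37, 3.41 (si-PLANE.1) and 0.82, 0.49 FPKM (si-PLANE.2).

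Of the 9 receptor and kinase genes, 0 were called between numbers by edgeR in either direction (0 at an unadjusted p under 0.05). IFNAR1 and IFNAR2, the type I receptor chains, were at 24.9 and 18.99 FPKM and at 24.9 and 26.8 FPKM in si-ctrl libraries 1 and 2. JAK1 was at 56.2 and 58.4 FPKM, and TYK2 at 36.5 and 34.6 FPKM. The other receptor chains IFNGR1, IFNGR2, IFNLR1 and IL10RB, and the kinase JAK2, lay between 2.10 and 54.3 FPKM in si-ctrl library 1 and between 2.78 and 47.8 FPKM in si-ctrl library 2.

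The next 3 lists are read beside the 2.92% of all 14535 genes called higher in number 1 and the 2.68% called higher in number 2. Of 12 sensors and adaptors tested, 5 were called higher in number 1, namely IFI16 (14.4-fold), DHX58 (4.93-fold), TLR3 (3.73-fold), TRIM25 (1.95-fold) and MYD88 (1.66-fold). Of 8 inhibitors, NLRC5 (2.96-fold) and TRIM38 were called, both higher in number 1. In the separate list of 39 ISGs, 33 passed the filter, and 30 of these were called higher in number 1 and 0 lower, with a median log2 difference of 1.15. The 5 with the largest differences were PARP10, LAMP3 (8.13-fold), LGALS3BP (6.83-fold), HELZ2 (6.38-fold) and PARP12. This list was chosen with earlier results known and is not independent evidence.

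The first siRNA was compared with si-ctrl both over all 4 libraries and within a number. Over the 4 libraries, in a fit with no term for the number, 0 of 40 members were called by edgeR in either direction, and 0 had an unadjusted p under 0.05. DESeq2 and limma, also without that term, called 0. A p that misses the threshold in this fit does not show that the groups were alike. Of all 14535 genes, 0.00688% were called higher and 0.0275% lower, so few genes of any kind passed in this comparison. The median log2 difference of the members was 0.54, beside 0.00 over all genes, and 38 of 40 were higher with si-PLANE.1. The 4 libraries of each member spread over the gap between numbers in both groups, which is the spread that this test reads. Leaving out si-ctrl library 1 moved the median to 2.73, and leaving out si-PLANE.1 library 1 moved it to -1.97. Without si-ctrl library 2 it was -0.19, and without si-PLANE.1 library 2 it was 1.33.

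Within number 1, 39 of 40 members were higher in si-PLANE.1 than in si-ctrl, with a median log2 difference of 0.58 (1.49-fold), beside 0.00 over all genes. At least 2-fold higher were 9 members, against 3.41% of all genes. Within number 2, 24 were higher and 15 lower, with a median of 0.11 (1.08-fold), and 0 were 2-fold higher with a level of at least 1 FPKM, against 2.25% of all genes. The 24 members higher within number 2 were also higher within number 1. With 39 of 40 higher within number 1, this overlap was nearly fixed beforehand and does not show that a difference was repeated. These are single libraries against single libraries, and no test was made within a number. In number 2, 5 members (RSAD2, IFI44, IFI44L, XAF1 and BST2) had at most 3 counts in both libraries, so no difference was readable for them.

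IFIT2 was 2.67-fold higher in si-PLANE.1 within number 1 and 3.04-fold within number 2, from 104 and 13 counts in si-ctrl and 245 and 33 counts in si-PLANE.1. OASL was 2.58-fold and 2.17-fold higher. ISG15 was 1.70-fold and 1.65-fold higher, USP18 1.41-fold and 1.52-fold, and HERC5 1.44-fold and 1.59-fold. Within number 2, OASL had 7 counts in si-ctrl and 13 in si-PLANE.1, and ISG15 had 8 and 11. The exact intervals of these count ratios, 0.873 to 6.97 for OASL and 0.638 to 4.99 for ISG15, included 1. No rise was thus readable for OASL and ISG15 within number 2. The intervals of USP18 (1.16 to 2.02) and HERC5 (1.12 to 2.31) within number 2 lay above 1, but these genes were picked after their values were seen. Of the other genes of the ISG15 system, HERC6 was 1.24-fold and 1.39-fold higher. UBE2L6 changed sign, at 1.24-fold within number 1 and 0.791-fold within number 2 (interval 0.667 to 0.934). OAS3 was lower within both numbers, by 0.45 and 0.90 on the log2 scale. IFIT1 differed in sign, at 1.24-fold within number 1 and 0.640-fold within number 2.

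**Figure D4:**
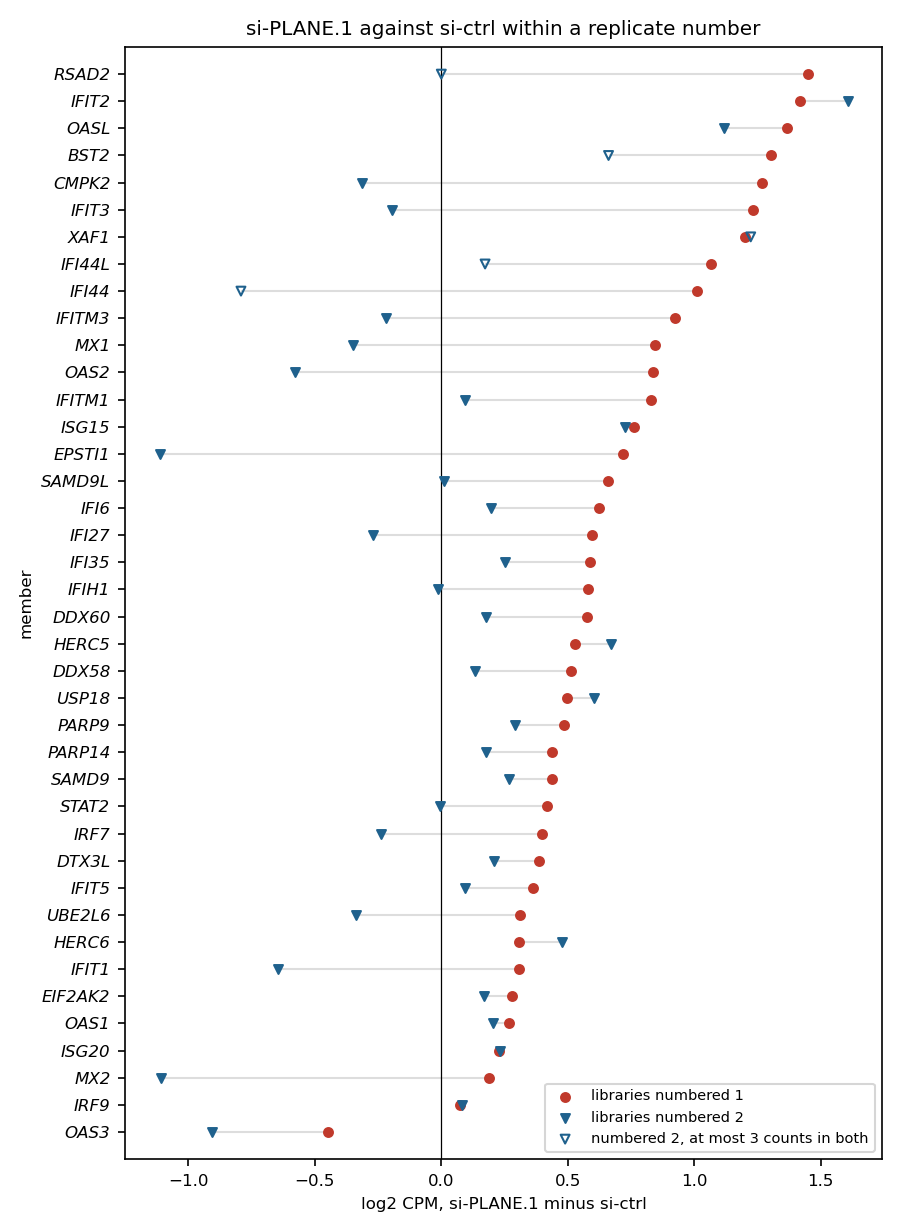
Log2 CPM of si-PLANE.1 minus si-ctrl for each member within number 1 (circles) and within number 2 (triangles). Open triangles mark members with at most 3 counts in both libraries numbered 2. All circles but that of OAS3 lie right of 0, while triangles lie on both sides.

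The second siRNA was compared with si-ctrl in a fit of 4 libraries. RSAD2 and EPSTI1 fell under the filter of a mean of 0.5 FPKM, which leaves 38 members. Of these, 12 were called lower and 0 higher with si-PLANE.2. The background was wide, with 32.3% of 14168 genes called lower and 31.8% higher, so the share of members called lower was close to that of all genes. DESeq2 called 5 lower, and the share of all genes that it called is not given here. The median log2 difference of the members was -1.47, beside -0.03 over all genes. As fitted, the largest decreases were IFI44L (log2 -6.41, SE 1.96), OAS2 (-5.79, SE 1.71), XAF1 (-4.13, SE 1.52), MX1 (-3.82, SE 1.37) and IFITM1 (-3.25). IFIT1 (-2.77), DDX60 (-2.38), EIF2AK2 (-2.16), PARP9 (-2.10), PARP14 (-1.41), STAT2 (-1.05) and ISG20 (-0.66) completed the 12. DDX60 was at 17.9, 4.59 (si-ctrl), 30.0, 2.47 (si-PLANE.1) and 1.48, 1.23 FPKM (si-PLANE.2). PARP14 was at 36.5, 12.9 (si-ctrl), 54.3, 15.4 (si-PLANE.1) and 7.69, 7.97 FPKM (si-PLANE.2). PARP9 was at 60.2, 6.88 (si-ctrl), 90.2, 8.17 (si-PLANE.1) and 7.12, 6.73 FPKM (si-PLANE.2), so that its si-PLANE.2 libraries were close to those numbered 2. Leaving out either si-PLANE.2 library left fewer members called lower, and the share of all genes called in those fits is not given here. The adjusted p was 0.00219 for EIF2AK2 and 0.00602 for ISG20 (edgeR), while it was 0.0448 for IFITM1, whose fitted change was larger.

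The comparison with si-PLANE.2 turned on which si-ctrl library it was set against. On the scale of log2 CPM, both si-PLANE.2 libraries lay between the 2 si-ctrl libraries in 26 of 38 members, against 5.71% of all genes. They lay below both si-ctrl libraries in 6 members (41.2% of all genes) and above both in 1 (41.8% of all genes), with 5 members mixed. The si-ctrl libraries were a median of 3.03 apart on the log2 scale over the 40 members, while 2.12% of all genes were 2-fold higher in library 1. A place between them was thus easier to take for a member, and the shares of all genes are no like background. Without si-ctrl library 1, 16 members were called higher and 4 lower, against 35.2% and 34.3% of all genes, and the median was 0.55. Without si-ctrl library 2, 1 member was called higher and 36 lower, against 34.7% and 33.8% of all genes, and the median was -2.35. The sign of most members thus changed with the control library, while the share of all genes called in each direction hardly moved. For some the difference from si-ctrl library 2 was small, as in PARP9 (0.12), DTX3L (0.25) and SAMD9 (0.29) on the log2 scale.

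Against si-ctrl library 2 alone, ISG15 was 23.7-fold, BST2 18.7-fold, IFI6 16.6-fold and IFI27 10.1-fold higher with si-PLANE.2. In that si-ctrl library they had 8, 2, 74 and 14 counts, so most of these folds are imprecise. The count of BST2 was under the floor of 3. Against si-ctrl library 1 alone, the same genes were at 0.245, 0.198, 0.358 and 0.178 of the control level. Not all members took such an intermediate place. EIF2AK2, PARP14, STAT2, ISG20, OAS2 and DDX60 were below both si-ctrl libraries in both si-PLANE.2 libraries, and the first 4 were called lower with either control library left out. In those fits the residual spread came only from the 2 si-PLANE.2 libraries, and the lone si-ctrl library was assumed to vary as they did, so the SEs hold none of the spread between si-ctrl libraries. EIF2AK2 differed by -1.26 (SE 0.09) on the log2 scale without si-ctrl library 1 and by -2.70 (SE 0.09) without si-ctrl library 2. PARP14 differed by -0.50 and -1.94, STAT2 by -0.46 and -1.46, and ISG20 by -0.45 and -0.83. In log2 CPM, IFI35 was above both si-ctrl libraries, and it differed by 2.44 without si-ctrl library 1 and by 0.50 without library 2. In FPKM its si-PLANE.2 libraries (34.9 and 37.2) were below si-ctrl library 1 (38.0), so its place depended on the unit. It was not called in the fit with both si-ctrl libraries (log2 1.16).

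**Figure D5:**
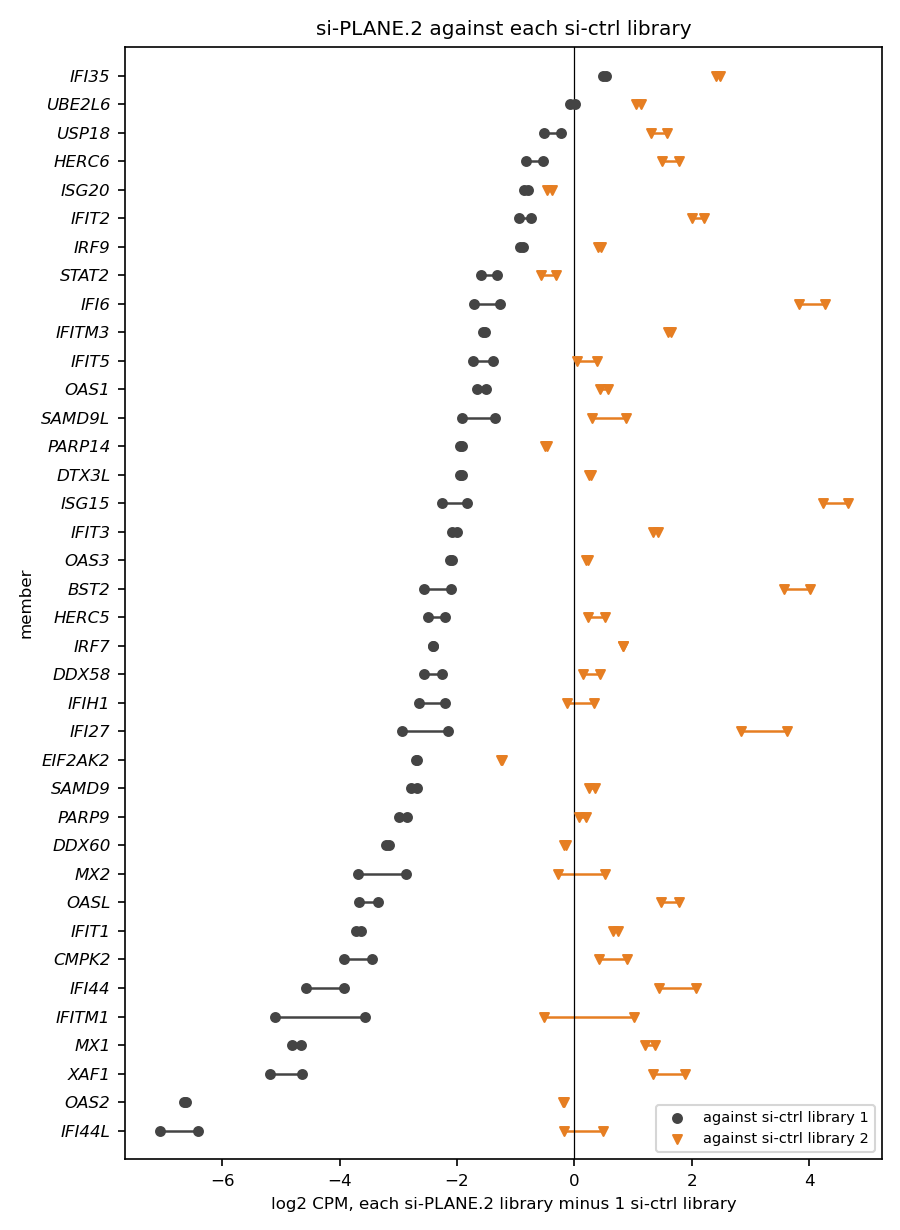
Log2 CPM of each si-PLANE.2 library minus si-ctrl library 1 (circles) and minus si-ctrl library 2 (triangles) for the 38 members tested, with a line joining the 2 si-PLANE.2 libraries. Circles lie left of 0 for nearly all members and triangles mostly right of 0, while EIF2AK2, PARP14, STAT2, ISG20, OAS2 and DDX60 lie left of 0 against both. The triangles of OAS2 and DDX60 lie close to 0.

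The difference between the siRNAs was tested in a fit of all 6 libraries. Of 39 members tested, 8 were called lower with si-PLANE.2 than with si-PLANE.1 and 0 higher, against 33.4% and 31.1% of all 14440 genes. They were IFI44L (log2 -7.47, SE 2.62), OAS2 (-6.62), XAF1 (-5.35), DDX60 (-2.93), EIF2AK2 (-2.41, SE 0.54), PARP14 (-1.78), STAT2 (-1.35) and ISG20 (-0.90, SE 0.18). The members' median was -2.13, beside -0.06 over all genes. Leaving out si-PLANE.1 library 1 turned the median to 0.49. Over all single libraries left out, the median ranged from -2.94 to 0.49. The number of members called lower changed with the library left out, and the share of all genes called in those fits is not given here. With both libraries numbered 1 left out, an alternative chosen after seeing the data, 17 members were called higher with si-PLANE.2 and 4 lower, against 34.8% and 35.4% of all genes. The 4 were EIF2AK2, STAT2, ISG20 and PARP14. In that fit the residual spread came only from the si-PLANE.2 libraries. IFI6 was then 14.4-fold and ISG15 13.6-fold higher with si-PLANE.2 than with si-PLANE.1.

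In the pathway lists, the si-PLANE.2 libraries differed from si-ctrl also in genes not called between numbers. JAK2 fell (log2 -1.43), as did IFNGR1 (-0.48) and IFNAR1 (-0.39), and TYK2 rose (0.49). Of the 9 receptor and kinase genes, 3 were called lower and 1 higher, against 32.3% and 31.8% of all genes, so these counts are no result about the list. Of 8 inhibitors, PIAS1 (log2 -1.52) and TRIM38 (-0.56) were called lower and NLRX1 (0.66) higher. Of 8 genes tested in the list of interferon transcription factors, the repressor IRF2 (-1.02) was called lower and NFKB1 (0.44) higher. Beside the same shares of all genes, these counts are no result about the lists. In the separate ISG list, 8 of 33 genes tested were called lower and 6 higher, against the shares of all genes given above for this comparison. TRIM22 had the largest decrease of that list (-2.13), followed by SP110 (-1.67), while GBP1 (1.65) and GBP2 (1.49) rose. Of these, TRIM22, SP110 and GBP1 were also called between numbers. The histone RNAs, lower in both si-PLANE.2 libraries, moved with the group, as did markers of A549 cells, of which 8 of 10 were called higher and 1 lower than in si-ctrl, and of fibroblasts, of which 3 of 8 were tested and 3 called lower. The part of these in the values of the members was not tested.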

How the data were processed

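RNA was sequenced from A549 cells transfected with a control siRNA or either PLANE siRNA (2 libraries each, grouped by the labels). The authors deposited expected counts per transcript, estimated from reads aligned to hg19 and not normalised, and FPKM values, which they scaled to transcript length and library size. The submitters' processing notes name Trimmomatic 0.30, HISAT2 2.0.1, HTSeq 0.6.1 and DESeq; the tool that estimated the counts, its annotation and its use of strand are not given in the sources used here. Library totals ran from 10572151 to 20778431, and a larger total leaves less counting error. The si-ctrl columns were the same in both deposited tables. PLANE was not analysed here.

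Both units were summed per gene over the 180253 transcripts, leaving out 16723 without a gene ID, and summed counts were rounded. Genes averaging 0.5 FPKM or more in the compared libraries were tested with edgeR 4.0.16 (R 4.3.3; TMM scaling, two-sided quasi-likelihood test, Benjamini-Hochberg adjustment over all genes tested, threshold 0.05). Each siRNA was compared with si-ctrl over 4 libraries, the siRNAs with each other in a fit of 6, and the replicate number in a fit with group as a term. DESeq2 1.42.0, limma 3.58.1 on log2(FPKM + 1) or log2(FPKM + 0.1), other filters and left-out libraries were alternatives. Single libraries were compared as TMM-scaled log2 CPM with a prior count of 1, and a 2-fold difference was counted where the higher level was at least 1 FPKM. A count of 0 was set to a floor of 3, and count ratios carry exact 95% intervals. The procedure was tested on simulated data. The members and lists were chosen with earlier results of these data known. Values in every library are given for the 12 members with the highest mean FPKM, for the 10 largest called changes of each comparison and for the 5 largest differences shared by both pairs of libraries; other members are given by range, and up to 5 called genes per pathway list are named. IFIT2, OASL, USP18, HERC5 and EPSTI1 were singled out after their values were seen. A result of the pathway lists is not reported here.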

Additional observations from a re-analysis of the deposited data

Results flagged for a closer look

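In 8 members the difference between the siRNAs was itself past the threshold in the fit of 6 libraries (edgeR, Benjamini-Hochberg adjusted). They were 8 of 39 members tested, all lower with si-PLANE.2, beside 33.4% of all 14440 genes called lower, so the count is no result about the members. On the log2 scale, si-PLANE.2 against si-PLANE.1 gave -7.47 for IFI44L, -6.62 for OAS2, -5.35 for XAF1, -2.93 for DDX60, -2.41 for EIF2AK2, -1.78 for PARP14, -1.35 for STAT2 and -0.90 for ISG20. EIF2AK2 and ISG20 were called with any single library left out, while OAS2 and XAF1 turned to 0.42 and 0.35 without si-PLANE.1 library 1.

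EPSTI1 moved in opposite directions between libraries 1 and 2 of the groups, at -0.52 in si-ctrl and 1.31 in si-PLANE.1 on the log2 scale. This difference was not tested, and it rests on 5 to 15 counts per library.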

How the results depend on the processing

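With 2 libraries per group, 1 library decided the sign of the members' median in each comparison of siRNAs, and members with few counts had no readable change within number 2. Between replicate numbers, limma on log2(FPKM + 1) called 25 members and gave a median of -2.456 for number 2 against 1. The other alternatives called 32 to 38, and the shares of all genes called in these alternatives are not given here. Leaving out a library there was not run, since no residual degree of freedom remained. The 38 members that differed 2-fold in both pairs stayed at 38 with 1.5-fold or with FPKM ratios.

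With the replicate number as a block, 19 members were called higher and 1 lower (OAS3) with si-PLANE.1 than with si-ctrl, against 0 and 0 without it. The share of all genes called in that fit is not given here, so these counts are no result about the members. The labels do not say what the number marks, and the deviations of the numbers correlated across all genes with r = 0.335. Without the members it was 0.23. No paired analysis was possible because si-PLANE.2 shares no replicate number with the other groups, as regards its comparisons.

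For si-PLANE.2 against si-ctrl, 12 members were called lower. DESeq2 and limma on log2(FPKM + 1) called 5, limma on log2(FPKM + 0.1) 4, a fit of all libraries 2 and the most abundant transcript 3. For si-PLANE.2 against si-PLANE.1, 8 were called lower. DESeq2 and both limma fits called 4, and no minimum FPKM gave 30. The shares of all genes called in these alternatives of both comparisons are not given here, so the changes in count are no result about the members. With both libraries numbered 1 left out, chosen after seeing the data, 17 were higher and 4 lower, with a median of 0.493, and OAS2 (0.422) and XAF1 (0.354) reversed. The cause was not tested.

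With 1 library left out, the members' median for si-PLANE.1 ranged from -1.97 to 2.73, with 0 members called. For si-PLANE.2 against si-ctrl the ranges were 0 to 16 higher, 2 to 36 lower and a median of -2.348 to 0.547. IFI44L ranged from -7.392 to 0.268, XAF1 from -5.114 to 2.179, MX1 from -4.787 to 1.332, IFITM1 from -4.297 to 0.468, IFIT1 from -3.691 to 0.684 and PARP9 from -2.923 to 0.122. Against si-PLANE.1 the median ranged from -2.944 to 0.492, with OAS2 from -7.614 to 0.421 and XAF1 from -6.331 to 0.353. EIF2AK2 stayed called in the same direction under all alternatives run for both comparisons.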
